A study of Sus scrofa with 8 samples.

Results

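The muscle-type miRNAs of the pig liver were miR-1, miR-206, miR-133a, miR-133b and miR-499, which made up 7 of the 888 miRNA names measured. They were taken by name, with or without the pig prefix ssc- and with either arm of the hairpin, and are known in the table as ssc-miR-1, miR-1-3p, ssc-miR-206, ssc-miR-133a-3p, ssc-miR-133a-5p, ssc-miR-133b and ssc-miR-499-5p. The group had been singled out for its values in old against young livers, so the difference between ages is described here for these miRNAs and was not tested. Liver was collected from 2 young sows at 180 days of age and from 2 old sows at 8 years, all of the Yanan breed, and each age group gave 2 RNA-seq and 2 small RNA-seq libraries. All sows were healthy, unrelated to one another and fasted overnight before slaughter. The young sows had not given birth and the old sows had been culled after repeated births, so age and breeding history cannot be told apart.

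MicroRNAs are short RNAs that pair with messenger RNAs and lower their stability or translation. One strand of the hairpin precursor, the guide, is usually kept, and the other, the passenger, is mostly lost. miR-1, miR-206 and the miR-133 family are best known from heart and skeletal muscle, where they are induced by myogenic transcription factors and act in the differentiation and growth of muscle cells. miR-1 and miR-206 share a seed, the stretch near the 5′ end that chooses targets, and miR-133a and miR-133b form a second family. miR-499 is made from an intron of a myosin heavy chain gene and acts in slow and cardiac muscle. The liver's own abundant miRNA is miR-122.

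Summed over the listed miRNA names, the small RNA libraries gave between 11661943 and 14139461 reads. Over listed mRNAs, the RNA-seq libraries gave 37555696 and 37125093 reads in the young livers, against 22482241 and 24866406 in the old ones. There 1 read was worth 0.0109 and 0.0116 CPM in the young livers, against 0.0162 and 0.0139 CPM in the old ones. The miRNA sums are not the depth of the libraries, since the same reads are listed under more than 1 name. The liver miRNA miR-122 alone appears as ssc-miR-122 with 3436134 reads and as miR-122-5p with 3436138 reads in young 1. Without the 5 names found to repeat another within 2%, the sums ran from 8715516 to 10438212 reads. The largest of these is above the highest number of clean reads that the study reports for a small RNA library. Some of its reads are therefore still listed under more than 1 name, and shared reads may remain in the other sums. In the small RNA libraries 1 read was worth between 0.962 and 1.33 units of the deposited signal, so the values of 1 library differ in scale from those of another beyond the count of reads. With 2 livers in each group an exact two-sided permutation test of a single value cannot go below p = 0.333. The labels do not say that the small RNA and RNA-seq libraries of the same age and number came from 1 sow. Intervals given for reads cover counting error only, at a confidence level of 95%.

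miR-206 was close to absent in the young livers and present in both old livers. This miRNA is largely restricted to skeletal muscle and its regenerating fibres. Its normalized signal was 4.002 and 3.85 in the young livers (3 and 4 reads), against 79.6 and 295 in the old ones (70 and 248 reads). The young values lay at or near the limit of 3 reads, with exact Poisson intervals of 0.619 to 8.77 reads and 1.09 to 10.24 reads. The old livers did not overlap with the young ones, and the old liver numbered 2 was 3.71-fold above the old liver numbered 1. Over each group, 318 old reads stood against 7 young reads, which scaled by the worth of 1 read in each library gave a ratio of 47.2 (22.7 to 118). Reads of both livers of an age were added for this ratio, so its interval does not cover the difference between livers. The log2 fold change on log2(signal + 1) was 4.97, and it was 3.57 when 10 was added in place of 1.

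miR-1 was likewise higher in both old livers, and highest in the old liver numbered 2, at a higher level than miR-206. It was listed under the pig name and again as miR-1-3p. The pig name read 212 and 104 in the young livers (159 and 108 reads), against 1211 and 2630 in the old ones (1065 and 2211 reads). The lower old value was 5.71-fold above the higher young value, with a log2 fold change of 3.58. The read ratio, from the added reads of both livers of an age, was 12.8 (11.3 to 14.5). Its interval does not cover the difference between livers, which was 2.17-fold between the old and 2.04-fold between the young ones. The name miR-1-3p read 423 and 205 in the young livers, against 2371 and 5144 in the old ones, with a log2 fold change of 3.56.

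Both names of miR-1 carried nearly the same pattern and are not independent measurements. In every library miR-1-3p held close to double the reads of ssc-miR-1, with ratios of 1.99, 1.97, 1.96 and 1.96 in young 1, young 2, old 1 and old 2. Pig names were set beside the same name or either of its arms without the prefix where both had at least 100 reads, which gave 34 pairs, many of them opposite arms of the hairpin. In 5 pairs the reads repeated within 2% in every library, and this was the 1 pair with a ratio between 1.9 and 2.1. How the reads were divided between the names was not tested, and miR-1 was counted once, as ssc-miR-1, wherever members are summed.

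miR-133a, which is transcribed together with miR-1 in muscle, did not separate the age groups. Its guide strand, ssc-miR-133a-3p, read 643 and 533 in the young livers, against 598 and 1470 in the old ones (482, 554, 526 and 1236 reads). The old liver numbered 2 was high, and the old liver numbered 1 lay between both young livers. The log2 fold change was 0.68, and without the old liver numbered 2 it was 0.03.

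The passenger strand of miR-133a followed its guide at a low level. ssc-miR-133a-5p read 18.7 and 17.3 in the young livers, against 20.47 and 29.7 in the old ones (14, 18, 18 and 25 reads). The guide held 34.4, 30.8, 29.2 and 49.4 times the reads of the passenger in young 1, young 2, old 1 and old 2, and the counting interval of every library overlapped with those of the others. The log2 fold change of the passenger was 0.44, and its age groups, apart by 20.47 against 18.7 as deposited, overlapped once the libraries were rescaled by median-of-ratios size factors.

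miR-133b, the partner of miR-206 in the genome, was higher in the old livers by a smaller step. It read 9.34 and 15.4 in the young livers, against 28.4 and 47.6 in the old ones, from 7, 16, 25 and 40 reads. The groups did not overlap, and they stayed apart after rescaling, when the lower old value was 1.32-fold above the higher young value. The log2 fold change was 1.54.

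miR-499 followed the number of the replicate and not the age. ssc-miR-499-5p read 1102 and 447 in the young livers, against 1125 and 478 in the old ones (826, 465, 989 and 402 reads). Its log2 fold change was 0.06, and the sign turned to -0.10 after median-of-ratios rescaling. Both livers numbered 1 lay above both livers numbered 2, as was true of 201 of the 867 miRNAs tested (23.2%), while the reverse order was found in 39 (4.50%). After rescaling these were 108 (12.5%) and 114 (13.1%), and miR-499-5p read 951 and 580 in the young livers, against 1041 and 462 in the old ones. The labels do not say that a number marks a shared batch.

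**Figure D1:**
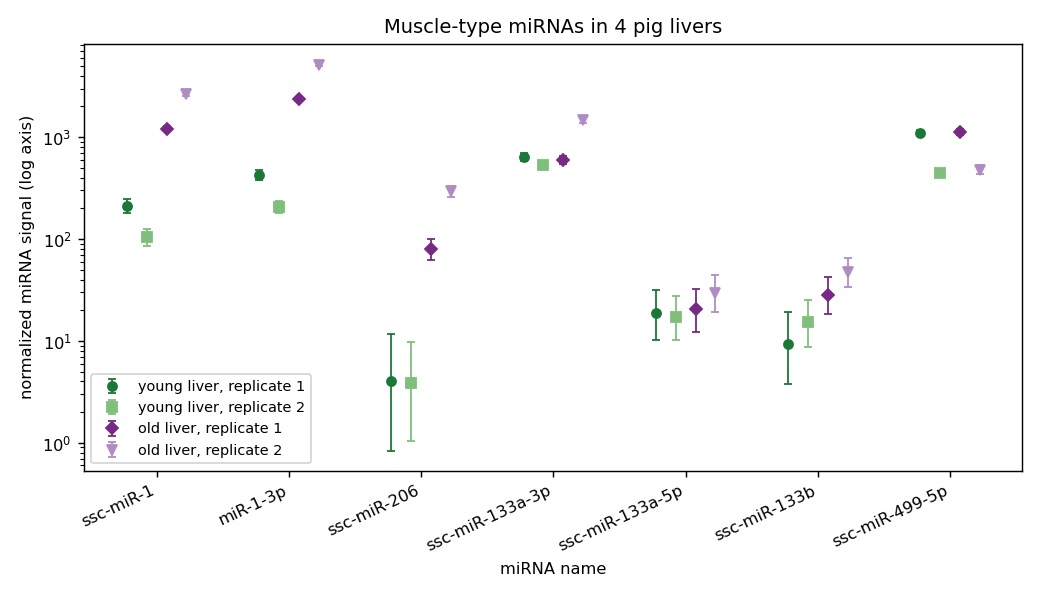
Normalized miRNA signal (log axis) of the 7 muscle-type miRNA names in 2 young livers (green) and 2 old livers (purple), with 95% exact Poisson intervals of the reads as bars. miR-206 lies near 4 in the young livers, against 79.6 and 295 in the old, and ssc-miR-1 at no more than 212 in the young and no less than 1211 in the old, while the age groups of miR-133a-3p and miR-499-5p overlap.

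By count, 4 of the 7 names were over 2-fold higher in old livers with no overlap between groups, namely both names of miR-1, miR-206 and miR-133b. The share among all 867 miRNAs tested was 16.7% in that direction, and the members had been chosen on this contrast, so nothing is read from the comparison. No member was over 2-fold lower with no overlap, against 7.84% of all miRNAs, 5 of 7 were higher without overlap by any amount, against 28.3%, and 2 of 7 overlapped. Among all miRNAs 145 were over 2-fold higher and 68 lower without overlap (24.6% in either direction), a split that became 109 and 102 after median-of-ratios rescaling and 131 and 82 after scaling to the same total. The median log2 fold change of all miRNAs was 0.18 and moved by -0.14 with median-of-ratios rescaling, which is small beside the values of miR-206 and miR-1. Across all miRNAs limma called 0 at an adjusted p under 0.05 and a 2-fold change, with 72 higher and 31 lower at an unadjusted p under 0.05. The quasi-likelihood test of edgeR also called 0, its exact test called 26 and DESeq2 called 43.

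Ranked by log2 fold change, miR-206 stood at place 1 of 867, ssc-miR-1 at 4 and miR-1-3p at 5. miR-133b stood at 80, miR-133a-3p at 264, miR-133a-5p at 338 and miR-499-5p at 485. Over 15 other settings the place of miR-206 ranged from 1 to 5 and that of ssc-miR-1 from 3 to 25. The members therefore covered the range from the top of the list to its middle.

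**Figure D2:**
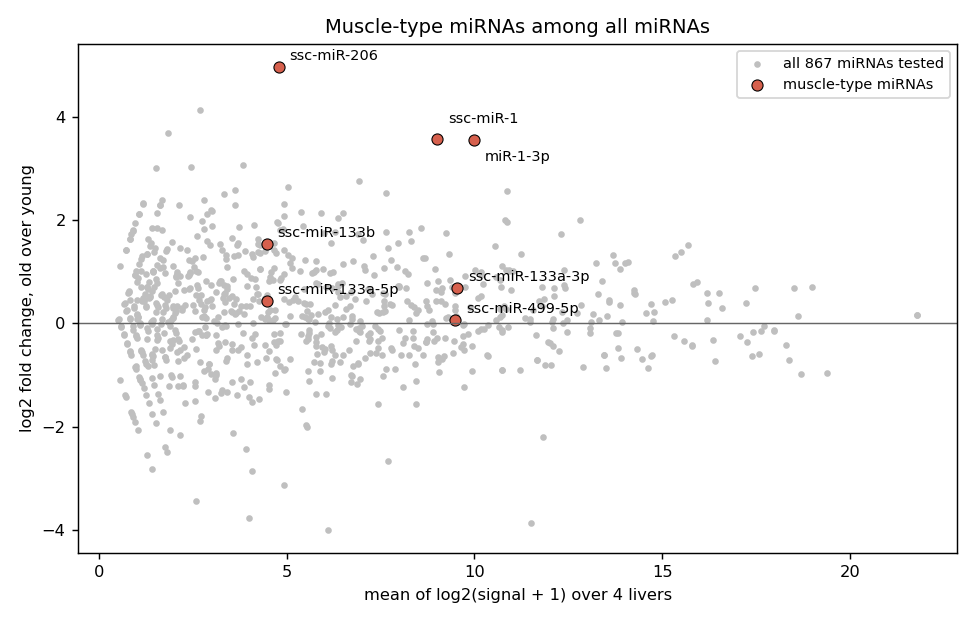
The log2 fold change of old over young livers against the mean of log2(signal + 1) over 4 livers for all 867 miRNAs tested (grey) and the muscle-type miRNAs (red). miR-206 has a value of 4.97 and both names of miR-1 have 3.58 and 3.56, while miR-133a-3p at 0.68 and miR-499-5p at 0.06 lie inside the cloud.

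Ratios of reads within a library do not depend on how the libraries were scaled. The genes of miR-1 and miR-133a, and those of miR-206 and miR-133b, are neighbours in the pig RefSeq annotation, so each pair can be read within 1 liver. The ratio of ssc-miR-1 to ssc-miR-133a-3p was 0.330 and 0.195 in the young livers, against 2.02 and 1.79 in the old ones. It was therefore below 1 in both young and above 1 in both old livers, and the lower old ratio was 5.42-fold above the higher young ratio.

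The second pair moved in the same direction on few reads. The ratio of miR-206 to miR-133b was 0.429 and 0.250 in the young livers, against 2.80 and 6.20 in the old ones. Within the muscle seed family, miR-1 held 53.0 and 27.0 times the reads of miR-206 in the young livers, against 15.2 and 8.92 times in the old ones. The ratio of miR-1 to miR-499-5p was 0.192, 0.232, 1.08 and 5.50 in young 1, young 2, old 1 and old 2.

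**Figure D3:**
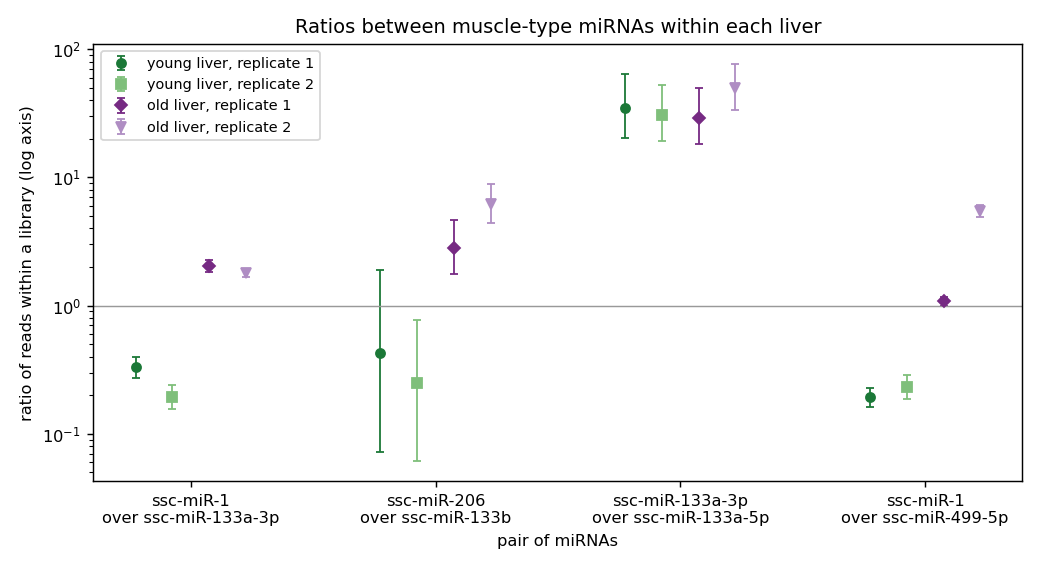
Ratios of reads between pairs of muscle-type miRNAs within each library (log axis), with 95% counting intervals as bars and a grey line at 1. miR-1 over miR-133a-3p lies at 0.330 and 0.195 in the young livers, against 2.02 and 1.79 in the old, and the ratio of the miR-133a guide to its passenger lies between 29.2 and 49.4 in all 4.

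The makeup of the group changed with these ratios. Counted once each, the members held 1491, 1165, 2693 and 4162 reads in young 1, young 2, old 1 and old 2. miR-499-5p was the largest member in young 1 with 55.4% of these reads, miR-133a-3p in young 2 with 47.6%, and miR-1 in both old livers with 39.5% and 53.1%. miR-206 held 0.201% and 0.343% in the young livers, against 2.60% and 5.96% in the old ones.

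Together the muscle-type miRNAs were a trace of the liver's miRNAs. Counted once each, they made up 0.0105% (0.01002 to 0.0111, Wilson) and 0.00999% (0.00943 to 0.0106) of the sum over all names in the young livers, and 0.0204% (0.0196 to 0.0212) and 0.0324% (0.0314 to 0.0334) in the old ones. These shares are too low as shares of a library's reads, because the sum holds miR-122 and other miRNAs more than once. With the 5 repeated names left out of the sum they were 0.0143% and 0.0134% in young livers, against 0.0273% and 0.0456% in old ones. These remain too low wherever reads are still listed more than once. The mean share of the old livers was 2.57-fold that of the young livers, or 2.64-fold without the repeated names and 1.98-fold without the old liver numbered 2. Leaving out miR-1 and miR-206, the shares of the sum over all names were 0.00940%, 0.00903%, 0.0118% and 0.0133%. For scale, ssc-miR-1 stood at 46.3, 39.9, 339 and 632 reads for every 1000000 reads of ssc-miR-122.

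The miRNAs most like miR-206 were sought among 413 known names with a mean signal of at least 10, by the root mean square difference of the centred log2 values over 4 livers. Leaving members aside, miR-504-5p was nearest at 1.27 and was followed by ssc-miR-664-3p, ssc-miR-545-3p, miR-7977 and miR-1260b. ssc-miR-1 was closer to miR-206 than any of them, at 0.82. miR-504-5p was also nearest to miR-1, at 0.45, and read 73.4 and 27.9 in the young livers, against 243 and 402 in the old ones.

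miR-133a-3p had other neighbours. ssc-miR-1343 was nearest at 0.12, and ssc-miR-10b, let-7c-5p, miR-125b-5p and ssc-miR-328 came next. ssc-miR-1343 read 1061, 796, 888 and 1907 in young 1, young 2, old 1 and old 2, which is the order of miR-133a-3p with the old liver numbered 2 on top. The distance of ssc-miR-1 from miR-133a-3p was 1.48. With 4 libraries these are descriptions of shape.

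The tissue was checked against marker genes in the RNA-seq libraries. Of 10 hepatocyte genes 9 were listed, and albumin (ALB) ran from 16534 to 35205 CPM (counts scaled to the size of the library), the transthyretin gene TTR from 1658 to 7797 and CPS1, the entry enzyme of the urea cycle, from 61.6 to 323. Of these 9 genes 3 were higher and 6 lower on average in old livers, with a median log2 fold change of -0.57 beside -0.02 over all 16898 mRNAs, and none was called by limma. With no overlap 0 were higher and 3 lower (ALB, APOB and CPS1), beside 24.4% and 25% of all mRNAs. Of these 1 was over 2-fold lower, CPS1 (log2 fold change -1.48), beside 4.2% of all mRNAs. The common dispersion of the mRNA reads in edgeR was 0.462 with 2 livers a group. In simulated mRNA data with a lower dispersion of 0.1, limma called 0% of features with a log2 fold change of 3 in size. A missing limma call here and for the gene lists that follow therefore does not show that the ages were alike. In bulk tissue, fewer cells of a type and less RNA per cell cannot be told apart.

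Skeletal muscle messenger RNAs were low at both ages. Of 50 skeletal muscle genes 31 were listed, 24 of them stayed under 1 CPM in every library, and MYF5, a myogenic regulator, was at 0 in all. Among the 27 that were tested 12 were higher and 15 lower on average in old livers, with a median log2 fold change of 0.00 after rounding (-0.0031), and 0 were called by limma, of 16898 mRNAs with 0 called (0%). At an unadjusted p under 0.05 there were 2 of the 27, against 1145 mRNAs higher and 1509 lower among all, and the exact test of edgeR and DESeq2 called 534 and 880 mRNAs. The genes CKM, MYH1, MYH2, MYH7, MYLPF, TNNT3, TTN, MB and MYOG were matched to no identifier and were not analysed here.

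Of the 27 skeletal muscle genes tested 6 were higher and 5 lower in old livers with no overlap, beside 24.4% and 25% of all mRNAs. One of the genes higher without overlap was MYOM1, which encodes a protein of the sarcomere's M band and was picked after its values had been seen. It read 0.621 and 0.254 CPM in young livers, against 1.67 and 1.24 CPM in old ones, with a log2 fold change of 0.78 ± 0.21 (SE) and a limma adjusted p of 0.271. Over 2-fold with no overlap, 1 gene was higher, TPM2 (log2 fold change 1.23), and 1 was lower, MYL3 (-1.14), beside 4.21% and 4.2% of all mRNAs. TNNC1 was also lower in both old livers. ACTA1, TNNC2, MYL1, MYOD1 and DES overlapped between the ages. The skeletal muscle actin gene ACTA1 read 0.577 and 0.196 CPM in the young livers, against 0.016 and 0.863 CPM in the old ones. The fast troponin gene TNNC2 read 0.327, 0.046, 0.065 and 1.30 CPM in young 1, young 2, old 1 and old 2, so both genes were highest in the old liver numbered 2 and at or near the floor in the old liver numbered 1. The fast myosin light chain gene MYL1 was at 0 in 3 livers and at 0.167 CPM in the old liver numbered 2. MYOD1, the myogenic master regulator, had 18 reads in young 1, 1 read in old 2 and none in the other livers. The desmin gene DES, of muscle intermediate filaments, read 1.27, 1.70, 1.06 and 4.19 CPM, with a log2 fold change of 0.40 ± 0.54 (SE) and a limma adjusted p of 0.782.

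Summed over the list, skeletal muscle genes gave 15.3 and 20.6 CPM in the young livers, against 26.0 and 28.9 CPM in the old ones. The largest single part in every library came from TPM2, a tropomyosin gene that smooth muscle and other cells also use, at 4.54, 10.6, 20.2 and 15.7 CPM. A second sum left out TPM2 and DES, a step that was not planned beforehand. It kept TNNC1 and MYL3, which were lower in both old livers. Without TPM2 and DES the sums were 9.51, 8.31, 4.69 and 8.995 CPM, the lowest in old 1. The small RNA library of the same age and number had 79.6 of miR-206 and 1211 of miR-1 in signal. The part of muscle cells in the miRNA values was not tested.

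The summed level of heart muscle genes was lower in both old livers. The part of heart muscle cells in the values of miR-1 was not tested. Of 12 heart genes 8 were listed, with summed levels of 5.05 and 4.71 CPM in the young livers, against 0.811 and 2.31 CPM in the old ones, and of the 7 tested 2 were higher and 5 lower on average, with a median log2 fold change of -0.13. The cardiac myosin gene MYH6 read 2.17 and 2.67 CPM in the young livers, against 0.016 and 0.181 CPM in the old ones, with a log2 fold change of -1.64 ± 0.16 (SE) and a limma adjusted p of 0.213. The cardiac troponin gene TNNT2 read 1.44, 1.39, 0 and 0.111 CPM, with an adjusted p of 0.213 by limma. The slow troponin gene TNNC1 (1.88, 2.16, 0.179 and 1.07 CPM) and the slow myosin light chain gene MYL3 (0.882, 1.58, 0 and 0 CPM), both from the skeletal muscle list, were also lower in both old livers. TNNT2, TNNC1 and MYL3 were picked after their values had been seen. The 2 heart genes higher on average were MYL4 (1.19, 0, 0.666 and 1.68 CPM) and NPPB (0, 0.104, 0 and 0.237 CPM), both with overlapping groups. MYL4 held the largest part of the heart sum in both old livers. The slow troponin gene TNNT1 of the skeletal muscle list also overlapped, at 0.348, 0, 0.195 and 0.362 CPM. None of these genes was called by limma. In humans MYH6 hosts miR-208a, another cardiac miRNA, and no name with miR-208a or miR-208b was listed.

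Most smooth muscle genes had higher mean levels in the old livers, largely through the old liver numbered 2. Of 10 genes 9 were listed and tested, and 7 were higher and 2 lower on average, with a median log2 fold change of 0.56 and 0 called by limma. The median was 0.13 without the old liver numbered 2 and 0.18 with a pseudocount of 10. Of the 9 genes 2 were higher and 1 lower with no overlap, beside 24.4% and 25% of all mRNAs. TAGLN, a smooth muscle actin-binding protein, read 2.49 and 3.78 CPM in the young livers, against 9.80 and 13.7 CPM in the old ones, with a log2 fold change of 1.63 ± 0.27 (SE) and a limma adjusted p of 0.218. The smooth muscle actin gene ACTA2 read 3.18, 4.32, 3.22 and 11.7 CPM in young 1, young 2, old 1 and old 2 and the calponin gene CNN1 read 0.087, 1.72, 1.37 and 3.44 CPM, both with overlapping groups and the highest value in old 2. ACTG2, another smooth muscle actin gene, was lower in both old livers at 3.07, 2.02, 1.64 and 1.68 CPM, with a limma adjusted p of 0.454. These 3 genes and TAGLN were picked after their values had been seen. The sums over the list were 61.4, 54.2, 94.7 and 86.5 CPM, of which CALD1 alone held 41.6, 34.7, 63.3 and 37.4 CPM. Without CALD1 the sums were 19.9, 19.5, 31.5 and 49.1 CPM, the highest in old 2. The part of smooth muscle cells in the values of the muscle-type miRNAs was not tested. Of 5 erythroid genes 3 were listed. The globin gene HBB ran from 302 to 617 CPM with lower values in both old livers and a limma adjusted p of 0.462. ALAS2 was also lower in both old livers, at 4.71, 3.55, 3.53 and 3.15 CPM. SLC4A1 overlapped between the ages, at 0.163, 0.254, 0.260 and 0.195 CPM.

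**Figure D4:**
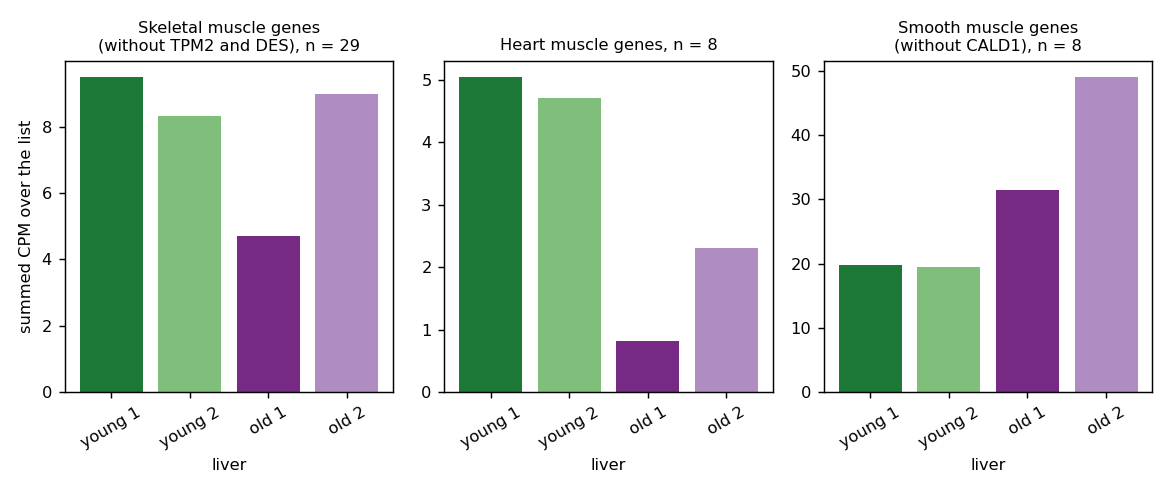
Summed CPM of listed skeletal muscle genes without TPM2 and DES, of heart muscle genes and of smooth muscle genes without CALD1, in each RNA-seq library (bars from 0, 1 bar for each liver). The skeletal muscle sum is lowest in old 1 at 4.69 CPM, and the heart sum is 5.05 and 4.71 CPM in the young against 0.811 and 2.31 CPM in the old livers. With TPM2 and DES, which is not drawn, the skeletal muscle sum is 15.3 and 20.6 CPM in the young against 26.0 and 28.9 CPM in the old livers. Leaving out these genes and CALD1 was not planned beforehand.

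Genes in which the miRNA genes lie were read from the same libraries. In the pig RefSeq annotation the gene of miR-499 lies inside MYH7B, a slow myosin gene, and 1 of the genes of miR-133a lies inside MIB1, which encodes a ubiquitin ligase of Notch signalling. MYH7B read 0.240 and 0.116 CPM in the young livers, against 0.439 and 0.376 CPM in the old ones, with a log2 fold change of 0.26 ± 0.12 (SE) and a limma adjusted p of 0.441. The groups did not overlap, whereas those of miR-499-5p did. MIB1 read 5.27 and 5.96 CPM in the young livers, against 2.67 and 4.89 CPM in the old ones, with a log2 fold change of -0.51 ± 0.29 (SE) and a limma adjusted p of 0.509. Both genes were thus measured in all livers, and neither was called. The strand of the miR-133a gene within MIB1 was not examined, so MIB1 is not read as its transcript.

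Genes known from the literature as targets of these miRNAs lay on both sides of 0. Of 44 reported targets 34 were listed, and of the 32 tested 20 were higher and 12 lower on average in the old livers, with a median log2 fold change of 0.04 beside -0.02 over all mRNAs. None was called by limma, 7 were higher and 7 lower with no overlap, against 24.4% and 25% of all mRNAs. Over all mRNAs 712 (4.21%) were over 2-fold higher and 710 (4.2%) lower without overlap (8.42% in either direction), which became 925 and 479 after median-of-ratios rescaling and 1002 and 420 after scaling to the same total.

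Among targets of miR-1 and miR-206, the gap junction gene GJA1 read 0.664 and 0.751 CPM in the young livers, against 1.69 and 1.45 CPM in the old ones, with a log2 fold change of 0.59 ± 0.12 (SE) and a limma adjusted p of 0.239. HDAC4, a repressor of muscle genes, read 0.272, 0.162, 0.227 and 0.376 CPM with overlapping groups. TKT, which encodes transketolase, read 19.6, 27.6, 33.3 and 48.5 CPM with an adjusted p of 0.367 by limma. GJA1 and TKT lay on the higher side in both old livers, and none of these genes passed the test.

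NR1H3, the liver X receptor alpha gene that the study discusses beside miR-206, overlapped between the ages. It read 64.7 and 93.6 CPM in the young livers, against 74.8 and 83.6 CPM in the old ones, with a log2 fold change of 0.02 ± 0.24 (SE) and a limma adjusted p of 0.976. Both old values lay between the young ones. SOX6 was matched to no identifier and was not analysed here.

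Among targets of miR-133, SRF, a muscle transcription factor, read 1.08 and 0.913 CPM in the young livers, against 1.80 and 1.82 CPM in the old ones, with a limma adjusted p of 0.254. The small GTPase gene CDC42 read 33.7, 38.4, 23.8 and 25.3 CPM, and RHOA, of the same family, 14.1, 18.1, 9.13 and 11.4 CPM. Their log2 fold changes were -0.53 ± 0.13 (SE) and -0.60 ± 0.21 (SE), with limma adjusted p of 0.262 and 0.334. The splicing regulator PTBP2 (log2 fold change 0.02) and the mitochondrial carrier UCP2 (0.17) overlapped between the ages. The miR-1 targets HSPD1 (-0.60) and MEF2A (-0.59), a chaperonin and a muscle transcription factor, were lower in both old livers without passing the test.

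**Figure D5:**
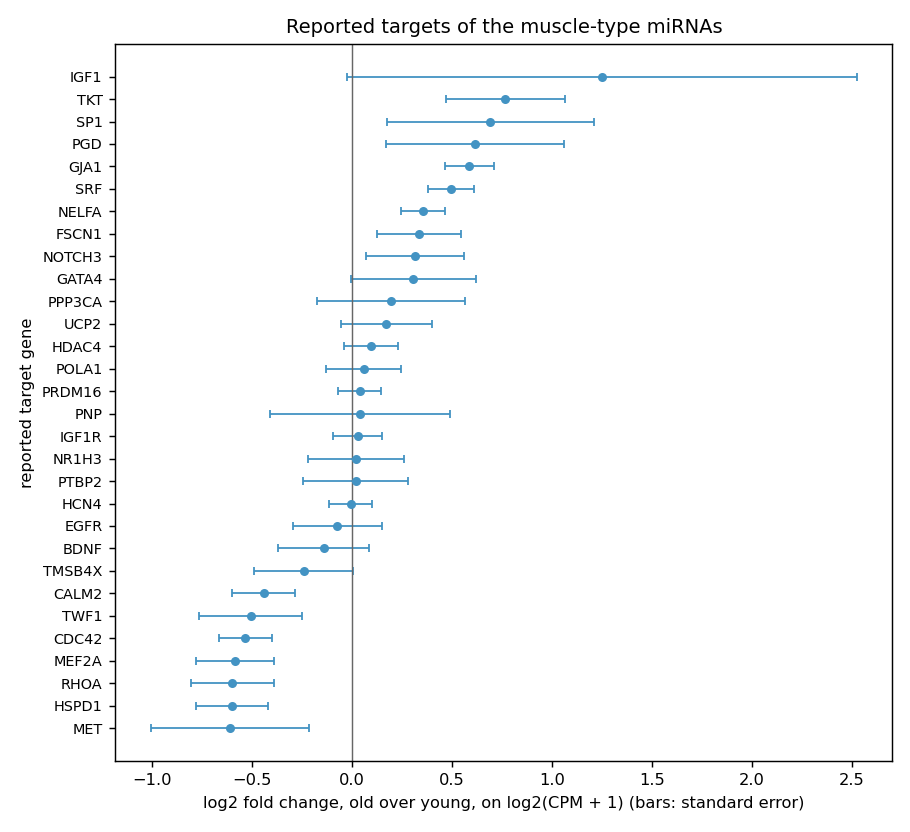
Log2 fold change of old over young livers on log2(CPM + 1) for 30 of the 32 reported target genes tested, with bars of 1 standard error from limma. GJA1 has 0.59, NR1H3 has 0.02 and CDC42 has -0.53, so the genes lie on both sides of 0.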

How the data were processed

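The members and gene lists were chosen with earlier results of these data known. Small RNA and rRNA-depleted RNA libraries were sequenced from 4 sow livers. The authors aligned RNA-seq reads with TopHat2 2.0.14, assembled transcripts with StringTie 1.2.3 and quantified them with Salmon 0.6.0 (versions per the submitters' processing notes). The deposited mRNA values, named TPM, are used here as CPM, since all values above 0 were whole multiples of 1 step per library. The authors made the miRNA values with mirdeep2, and this deposited signal is reads times 1 step per library. Whole reads were recovered by dividing by that step (100% of values above 0 within 0.1 read).

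Features above 0 in at least 2 libraries were fitted with limma 3.58.1 on log2(value + 1) in R 4.3.3, with Benjamini-Hochberg adjustment over all features, at an adjusted p of 0.05 and a log2 fold change of 1. edgeR 4.0.16 and DESeq2 1.42.0 were run on whole reads. Fits were tested on simulated data with 200 features changed by a log2 fold change of 3 in size. At a dispersion of 0.1 limma called 0% of the changed mRNAs and 92% of the changed miRNAs, and the exact test of edgeR called 100% of each. At a dispersion of 0.01 limma called 99.5% and 100%, but also 7.32% of the unchanged miRNAs. No p is given for the members. Symbols were found for 11654 of 21607 mRNA identifiers. Named genes were all members, fixed muscle genes, genes around miRNA genes and target genes, and up to 6 further targets with a mean of at least 1 CPM, no overlap and the largest change. Alternatives covered pseudocount, filter, scaling, test, replicate block and leaving out each library. lncRNA and circRNA tables were not used here. P-values measure the spread between these sows. Replicates were not pooled, except that the read ratios of miR-206 and miR-1 add the reads of both livers of an age. miRNA sequences are not shown. Values of 2 target genes are not reported here.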

Additional observations from a re-analysis of the deposited data

How the results depend on the processing

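Precision was limited by 2 livers a group and, for miR-206 and miR-133b, by few reads in the young livers. Of the alternative values of summary results 62 stayed within the spread between replicates or within 1.5 times the count and 20 did not, with 94 and 4 for single miRNAs and the smooth muscle genes. miRNA calls by limma numbered 7 with an intensity trend, and on whole reads 26 with the exact test of edgeR and 43 with DESeq2, while mRNA calls numbered 2 with a mean of at least 1, 534 and 880. Without each replicate in turn, calls stayed at 0, miRNAs over 2-fold with no overlap numbered 269 to 337 (337 without old replicate 1) against 213, and mRNAs 1512 to 2283 (2177 without young replicate 1 and 2283 without old replicate 2) against 1422. Here 1 liver stands for its group, which by construction leaves fewer livers to overlap.

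The log2 fold change of miR-206 was 4.03 to 5.91 without each replicate, and that of ssc-miR-1 3.02 to 4.14, that of miR-133b 1.18 to 1.9, that of miR-133a-3p 0.03 to 1.33 and that of miR-499-5p -0.59 to 0.71. The last also changed sign to -0.06 in both edgeR fits and -0.03 in DESeq2. The median of the skeletal muscle genes was 0.15 in both edgeR fits (0.152 and 0.154), 0.13 with DESeq2 and -0.093 to 0.062 without each replicate (-0.093 without old replicate 2), and that of the reported targets 0.23 with a pseudocount of 0.1, 0.36 in both edgeR fits, 0.34 with DESeq2 and -0.00 to 0.09 without each replicate. In those count fits the median of all mRNAs was 0.12 (edgeR) and 0.10 (DESeq2), a shift of 0.14 and 0.12, and that of the smooth muscle genes was 1.18 and 1.16, against 0.13 (without old replicate 2) to 0.93 without each replicate. The mean share of reads in old over young livers was 4.16 with all names summed, 3.41 with miR-1 counted as miR-1-3p, and 1.98 (without old replicate 2) to 3.16 without each replicate. The count-fit medians, the miR-1-3p share and the smooth muscle medians were chosen after seeing the data, and the cause of each change was not tested. With the replicate block both tables had 0 calls, and the log2 fold change of miR-206 was 4.97. Deviations of same-numbered libraries correlated at -0.0158 across miRNAs and 0.0902 across mRNAs, so the numbers were not taken as pairs.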

Other observations

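Other miRNAs of muscle, blood and liver were read beside the members. miR-499a-3p, the passenger of miR-499 under its human name and outside the naming rule, had 1 and 0 reads in the young livers and 0 and 2 reads in the old livers. The smooth muscle and stromal miRNAs miR-143-3p and miR-145-5p overlapped between the ages, at 257078, 180637, 219439 and 170429 and at 40857, 27733, 33768 and 63236 in signal (young 1, young 2, old 1 and old 2). Of the blood miRNAs, ssc-miR-486 read 1878, 1334, 1608 and 2460 and ssc-miR-451 read 51177, 22263, 31219 and 15594, both with overlapping groups. ssc-miR-144 read 192, 88.5, 163 and 472, again with overlap. The smallest of these log2 fold changes was -0.61 for ssc-miR-451 and the largest was 1.08 for ssc-miR-144.

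The miRNAs most like miR-499-5p and miR-133b were listed after values had been seen. miR-499-5p was nearest to ssc-miR-30b-5p (0.089), which read 13598, 5805, 12299 and 5740. miR-133b was nearest to miR-4508 (0.13), which read 82.7, 118, 194 and 314.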
